A study of Mus musculus with 6 samples.

Results

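The probes described here are the 60-base oligonucleotides of a mouse array whose written sequence holds AATAAA, the canonical polyadenylation signal. Of the 90752 non-control probes, 12953 (14.3%) hold AATAAA and lack its reverse complement, TTTATT, and are called signal probes below. The comparison set is the 3178 probes that hold TTTATT alone, called complement probes, and 372 probes with both hexamers were left out. There were 4.08 signal probes for each complement probe. Membership depends on the written sequence alone.

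The array was hybridised with hippocampal RNA of 6 male mice, 3 db/db animals and 3 db/m animals, all 18 weeks old and all taken after behavioural testing. db/db mice are homozygous for a loss of the long leptin receptor and become obese and diabetic, and db/m mice carry 1 normal copy and serve as the lean controls. The mutation acts in every tissue, so a difference between the groups is one of whole animals with and without obesity and diabetes. The labels describe 1 array for each mouse and name no treatment beyond the behavioural tests. The p-values below therefore measure the spread between these 6 mice. In whole tissue, fewer cells of a type and less RNA per cell cannot be told apart.

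In the nucleus, a forming transcript is cut a short way downstream of AAUAAA. The hexamer is bound by the cleavage and polyadenylation specificity factor, through its WDR33 and CPSF30 subunits, and a tail of adenosines that the genome does not encode is then added at the cut end. UGUA motifs upstream, bound by the cleavage factor NUDT21, and U- or GU-rich bases downstream assist the choice of site. Many long noncoding RNAs, like messenger RNAs, end this way. The 1-colour labelling kit named in the labels makes a labelled complementary RNA from the sample, which the kit's usual oligo(dT) primer starts at adenosine tails, and a probe on such an array is written in the sense of the RNA it detects. A TTTATT probe is then the same hexamer read on the other strand.

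Stretches of 30 bases around the hexamer are shown 5′ to 3′ for 6 signal probes that lie close to the median of their kind, so that the layout of the hexamer can be seen. Capitals mark the hexamer and, in the last pair, the run of A at the end of the probe as well. Each stretch is the last 30 bases of its probe.

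MOUSELNCRNA_11306: tgagttcAATAAAgactttgttctcccaaa
MOUSELNCRNA_54117: catgcagataaaatAATAAAgaatgagaac
MOUSELNCRNA_46967: ctaaaAATAAAatgtcaacttccagttgtc
MOUSELNCRNA_19004: atAATAAAgtgcaatactctccacaattaa
MOUSELNCRNA_89941: ccaAATAAAccaagaatgtgttagAAAAAA
MOUSELNCRNA_22092: gAATAAAgccaatgtagttgtggtgAAAAA

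The level of a probe is given throughout as log2 of its processed intensity minus the 75th percentile of its array, so that 0 is the brightness that 3 in 4 probes fall below. The signal of a probe also depends on its own sequence, so a brighter probe is not evidence of a more abundant RNA, and levels of different probes are compared as brightness only. On that scale MOUSELNCRNA_54117, with 10 bases after the hexamer, stood at -1.99, -1.79 and -1.48 in the db/db mice and at -1.75, -2.01 and -1.79 in the db/m mice. MOUSELNCRNA_89941, which ends in 6 A that begin 15 bases after the hexamer, stood at 1.22, 1.28 and 1.39 in db/db and at 1.72, 1.43 and 1.21 in db/m. In both probes the groups overlapped. In MOUSELNCRNA_11306, with 17 bases after the hexamer, they did not: the levels were -2.52, -2.43 and -2.61 in db/db and -1.87, -0.69 and -0.70 in db/m. The 6 probes were taken for a mean level near the median of their kind, not for their difference between genotypes.

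The 6 arrays were of like quality. Between 66527 and 70464 probes were well above background, no spot was saturated, and between 1 and 33 spots were flagged as outliers. The 75th percentile of intensity lay between 330 and 380. Slide 1 carried the 3 db/db mice together with db/m replicate 1, and slide 2 carried db/m replicates 2 and 3. Neither gene names nor genome positions of the probes are in the files used here. For that reason the tissue's cell type markers and the polyadenylation factors were not read out, and each probe is given by its identifier.

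Signal probes were rich in A, as the hexamer requires, with a mean of 19.7 A, 12 C, 11.3 G and 17 T per probe. Complement probes held 15.7 A, 11.3 C, 11.6 G and 21.4 T. The median number of G and C was 23 in signal probes, 22 in complement probes and 25 over all probes. Because probes of the same RNA can overlap, the signal probes fell into 11319 clusters when those sharing at least 30 consecutive bases were joined, and 2922 of them shared a cluster with another. They are thus not independent measurements of 12953 RNAs.

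The place of the hexamer in the probe set the signal probes apart from their mirror image. In signal probes the last AATAAA was most often followed by 14 bases, which held for 726 probes, and the median was 15 bases. In complement probes the last TTTATT was most often followed by 4 bases, in 93 probes, and the median was 23. AATAAA lay 10 to 24 bases from the probe's 3′ end in 7384 of the signal probes (57.0%), whereas TTTATT did so in 963 of the complement probes (30.3%). If every position were equally frequent the share would be 27.3%. The peak was sharpest between 12 and 17 bases, which held 30.2% of signal probes and 12.7% of complement probes. Taking 1 probe for each overlap cluster gave a share within 10 to 24 bases of 56.3%. Probes are laid out from annotated transcript sequence, so this position is a property of the array's design and carries no measurement from the mice.

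The sequence around the hexamer differed in a few features as well. TGTA, the DNA form of the upstream UGUA motif, stood before the hexamer in 1319 of the 5379 signal probes with 10 to 18 bases after it (24.5%), against 123 of 614 such complement probes. With 19 to 30 bases after it the counts were 580 of 2832 (20.5%) and 119 of 702. The probe ended in CA, the usual pair at a cleavage site, in 5.63% of signal probes and 5.54% of complement probes with 10 to 18 bases after the hexamer, and in 6.12% of all probes. These motifs were searched on the written strand alone.

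A run of A at the end of the probe was the clearest flanking feature. Among the 2832 signal probes with 19 to 30 bases after the hexamer, 500 (17.7%) ended in AAAA, against 16 of 702 complement probes (2.28%) and 3.21% of all probes. With only 10 to 18 bases after the hexamer, the share was 2.23% in signal probes and 2.28% in complement probes. The run was exactly 6 A long in 382 of the 500, 4 long in 70 and 5 long in 48, and in no probe of the array was the final run longer than 6, although runs of 8 A occurred inside probes. In the 382 probes with 6 A, the run began a median of 17 bases after the hexamer, with an interquartile range of 15 to 19. Over all positions, 558 signal probes (4.31%) ended in 6 A, compared with 25 complement probes (0.787%). The run began 10 to 30 bases after the hexamer in 449 of these signal probes and 11 of these complement probes.

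Signal probes that ended in such a run were much brighter than the others with the hexamer at the same distance. Their median level was 1.22, 1.39 and 1.59 in the db/db mice and 1.55, 1.41 and 1.49 in the db/m mice. Over the 6 arrays the mean was 1.44, against -1.71 for the 2332 signal probes that had 19 to 30 bases after the hexamer and another ending. Within probes of the same G and C number the difference was 3.27 ± 0.03 (SD, n = 6 arrays), and it lay between 3.22 and 3.30 on every array. They were also detected more often, meaning that at least 1 spot was well above background, in 92.2% against 79.7% of cases. The difference in detection at equal G and C number was 12.9 ± 1.04 percentage points (SD, n = 6 arrays). These groups were set apart after the levels had been seen, so no test was made.

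Probes with more A at the end were brighter. Among the signal probes with 19 to 30 bases after the hexamer, the mean level was -2.02 for the 1622 without a final A, -1.47 for the 382 with 1, -1.46 for the 164 with 2 and -0.11 for the 164 with 3. It was 0.66 with 4 A, 0.41 with 5 and 1.77 with 6. The order was broken between 4 and 5 A, where the ranges over arrays, 0.57 to 0.71 and 0.28 to 0.52, did not overlap. The brightness of A-ended probes also went with the hexamer. Probes with 6 A at the end averaged 1.42 when they were signal probes, -0.62 in the 1047 with neither hexamer and -2.36 in the 25 complement probes. Detection was 92.4%, 87.1% and 86.7% in the same order. Probes with neither hexamer and an ending other than AAAA averaged -3.07, so 6 A at the end went with brighter probes there too. Level went with distance too. Signal probes ending in AAAA within 9 bases of the hexamer, whose own A can be part of the run there, had a mean level of -1.35 (215 probes). Those with 10 to 18 bases after the hexamer averaged -0.47 (120 probes). The 500 with 19 to 30 bases averaged 1.44 and the 87 with more than 30 averaged 1.15, so the rise did not go on past 30 bases.

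Over all signal probes, the median level was -1.78, -1.77 and -1.67 in the db/db mice and -1.71, -1.72 and -1.63 in the db/m mice. Complement probes stood at -2.36, -2.38 and -2.40 in db/db and at -2.40, -2.33 and -2.30 in db/m. On every array the signal probes were the brighter set, and the 2 sets did not overlap across the 6 arrays. The spread within each set was far wider than the gap between them, since the middle 80% of signal probes ran from -7.04 to 3.97.

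With probes matched on the exact number of G and C, the median of signal probes exceeded that of complement probes by 0.56, 0.59 and 0.70 in db/db and by 0.65, 0.63 and 0.66 in db/m. The mean was 0.62 ± 0.08 in db/db and 0.65 ± 0.02 in db/m (SD, n = 3 arrays each), and the groups overlapped. Matching used 7 numbers of G and C, from 21 to 27, with 12717 signal probes (98.2%). The difference was above 0 on every array at all 7, from 0.35 at 25 to 1.23 at 27. Part of it lay in probes that other features mark. It was 0.47 without probes that hold a widely repeated stretch, described below, 0.46 without probes ending in AAAA and 0.29 ± 0.03 (SD, n = 6 arrays) without either. Matching on the number of A as well as of G and C raised it to 1.64, and matching on the distance of the hexamer to the end lowered it to 0.40.

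Detection hardly separated the sets. Signal probes were detected in 82.3%, 82.1% and 81.0% of cases in the db/db mice and in 78.5%, 78.6% and 81.6% in the db/m mice. Complement probes were detected in 80.5%, 80.9% and 78.9% and in 77.7%, 77.0% and 80.1%. At equal G and C number the difference was 0.907, 0.262 and 1.07 percentage points in db/db and -0.168, 0.765 and 0.657 in db/m, with a mean of 0.582 ± 0.458 (SD, n = 6 arrays). It was above 0 on every array only at 27 G and C, where it averaged 5.40 points. Without widely repeated stretches the mean was -0.0755 points, and matched on distance to the end as well it was -1.11, so its direction depended on the setting. Of the signal probes, 9803 (75.7%) were detected on all 6 arrays and 1644 (12.7%) on none.

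At the bright end signal probes were over-represented relative to their 14.3% share. They made up 26.1% of the brightest 10% of all probes, and 247 (27.2%) of the 908 brightest 1%, where there were 4 complement probes. Without widely repeated stretches they made up 31.9% of the brightest 1%.

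Brightness followed the place of the hexamer in a different way in each set. Signal probes were brightest with 20 to 24 bases after the hexamer, at a mean level of -0.81, against -1.93 with 10 to 14 and -2.80 with 40 to 54. That peak holds the A-ended probes: without an AAAA end, signal probes with 19 to 30 bases after the hexamer averaged -1.71 and those with 10 to 18 averaged -1.82. Complement probes were brightest with 5 to 9 bases after TTTATT, at -1.57, while those with 20 to 24 averaged -2.10 and those with 40 to 54 averaged -3.03. Signal probes with 0 to 4 bases after the hexamer averaged -1.24, and -1.98 once widely repeated stretches were left out.

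Whether other A-rich hexamers behave as AATAAA does was asked by setting each hexamer against its own reverse complement, in 17 hexamers in all. The 5 other arrangements of 5 A and 1 T, counted among probes with neither AATAAA nor TTTATT, were 0.83 to 1.25 times as frequent as their complements. They lay within 10 to 24 bases of the end in 26.8% to 33.1% of probes. All 5 were dimmer than their complements at equal G and C number, with differences from -0.46 for TAAAAA to -1.22 for AAAAAT with a median of -0.82. The 11 known weaker variants of the signal, counted among the same probes, were dimmer as well. Their differences ran from -0.14 for CATAAA to -1.01 for AATACA. Probes of AATAAA and TTTATT were not in turn cleared of the other hexamers, so the comparison is not quite like for like. With 0.63, the signal AATAAA was thus the only 1 of the 17 above its complement in level. That also held without widely repeated stretches, at 0.47.

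ATTAAA, the most common natural variant, came closest to AATAAA in place and number. It was 2.04 times as frequent as TTTAAT, with 4247 probes, and 50.5% of them had it within 10 to 24 bases of the end, against 32.9% for TTTAAT. Its level difference was -0.18. AGTAAA lay within that window in 38.7% of probes and TTTACT in 28.8%. The remaining 9 variants had shares of 28.3% to 34.6%.

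Widely repeated sequence was common at the bright end. A stretch of 15 bases found in at least 20 probes of the array was present in 500 signal probes (3.86%) and 30 complement probes (0.944%), against 3709 of all probes (4.09%). The share in signal probes was thus near that of the whole array. The 500 signal probes had a mean level of 5.33 and were detected in 98.4% of cases, while the other 12453 averaged -1.89 and 80.0%. A largest family, of 186 signal probes, held at least 1 of 3 stretches that are shown here because they mark the brightest signal probes, in capitals as the whole stretch defines the family.

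stretch_1: CAGCTACAGTGTACT
stretch_2: TTCTGGTGTGTCTGA
stretch_4: GTGTCTGAAGACAGC

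These stretches resemble the 3′ part of the B2 element, a short interspersed repeat of the mouse genome that carries AATAAA near its 3′ end. No repeat annotation was used here, and the name rests on general knowledge of the element.

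The 4 brightest signal probes, all of this family, and the 4 brightest complement probes are shown with the hexamer in capitals, because they carry the top of the scale. The first 4 lines are signal probes and the last 4 complement probes.

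MOUSELNCRNA_89056: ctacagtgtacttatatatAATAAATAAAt
MOUSELNCRNA_48295: ggtgtgtctgaagacagcaAATAAAtcttt
MOUSELNCRNA_22517: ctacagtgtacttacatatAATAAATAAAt
MOUSELNCRNA_44637: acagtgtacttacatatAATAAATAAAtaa
MOUSELNCRNA_31640: tgtctgaagacaagTTTATTgtactgtgct
MOUSELNCRNA_67728: tgggatttttccTTTATTatgtgcaactgt
MOUSELNCRNA_24546: cgtgaTTTATTtggagtggtggcattgttt
MOUSELNCRNA_48923: ctacacagagaaaccctatctgaTTTATTt

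MOUSELNCRNA_89056 stood at 8.38, 8.34 and 8.28 in db/db and at 8.41, 8.39 and 8.36 in db/m, and the groups overlapped. MOUSELNCRNA_31640, the brightest complement probe, stood at 8.50, 8.50 and 8.50 and at 8.61, 8.49 and 8.53. Its stretch tgtctgaagaca is shared with the family just described. The 186 probes of the family had a median level of 7.40 to 7.55 on the 6 arrays. They gave 132 of the 247 signal probes in the brightest 1% and 75 of the 100 brightest signal probes, and all 186 were detected on every array. Stretches 1, 2 and 4 also stood in 86, 70 and 94 probes outside the signal set, at levels of 7.95, 8.06 and 8.17. Brightness with these stretches was thus not particular to signal probes. Single probes of the family ran from -0.44 to 8.36. Whether they read 1 RNA each or several that share the stretch was not tested.

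A second family, of 52 signal probes, held AATAAACCCTTTCCT, a stretch that begins with the hexamer itself, which had a median of 13 bases after it. It had a mean level of 2.97, with single probes from -5.22 to 6.43.

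The level of probes with several copies of the hexamer depended on repeats. The 12294 probes with 1 copy averaged -1.76, the 608 with 2 copies -0.94 and the 51 with 3 or more 0.08. Without widely repeated stretches the same means were -1.87, -2.28 and -3.37, the last over 22 probes, so that the order turned round. The probe with the most copies, 4, was MOUSELNCRNA_5397. The 3 brightest probes with 3 copies are shown beside it with the copies in capitals.

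MOUSELNCRNA_5397: aAATAAAggtaaaAATAAATAAATAAAaga
MOUSELNCRNA_69384: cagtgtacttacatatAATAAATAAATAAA
MOUSELNCRNA_31344: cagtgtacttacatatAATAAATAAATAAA
MOUSELNCRNA_80003: agtgtacttcttaAATAAATAAATAAAtct

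MOUSELNCRNA_5397 lacked a widely repeated stretch and stood at -3.84, -4.15 and -4.43 in db/db and at -4.41, -3.98 and -3.46 in db/m. The other 3, of the B2-like family, averaged 8.06, 8.04 and 7.86. Because these 3 were picked by level, their brightness says nothing of the other probes with 3 copies.

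Pairs of probes on opposite strands set the hexamer against its complement in the bases they share, while their other bases can differ. There were 97 pairs that shared at least 30 bases on opposite strands with the hexamer in the shared part, from 83 signal and 63 complement probes. The signal strand was brighter by a median of 2.74, and the median on single arrays ran from 2.52 to 2.85. It was brighter on all 6 arrays in 73 pairs and dimmer on all 6 in 22. Single pairs spread widely, with an interquartile range of 0.14 to 4.16. In the 87 pairs with both probes detected on every array the median was 2.66, with 67 brighter and 18 dimmer. The 51 pairs left after taking 1 for each cluster had a median of 2.74, with 34 brighter and 16 dimmer. Without widely repeated stretches, 74 pairs were left, with a median of 2.71, 53 brighter and 20 dimmer. Their interquartile range was -0.72 to 4.45. These pairs belong to the array's sense and antisense probes.

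Among the pairs detected on every array, the 2 with the largest and the 2 with the lowest difference are shown, the signal probe first, with the hexamer in capitals.

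MOUSELNCRNA_56708: gtacagAATAAAtgagaaaagaatgggcat
MOUSELNCRNA_87991: tcaTTTATTctgtacccaacagtagaatga
MOUSELNCRNA_40555: cctgtAATAAAtgccagtttctacaaaaaa
MOUSELNCRNA_68691: tagaaactggcaTTTATTacaggtggaaga
MOUSELNCRNA_68976: gtttaattgaagtaAATAAAgctgagctca
MOUSELNCRNA_45316: cttgagctcagcTTTATTtacttcaattaa
MOUSELNCRNA_10497: AATAAAgtttgtaatccaatggacacacag
MOUSELNCRNA_25269: tgtgtgtccattggattacaaacTTTATTa

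MOUSELNCRNA_56708 averaged 5.96 and its partner MOUSELNCRNA_87991 -2.93. MOUSELNCRNA_40555, which ends in 6 A, averaged 3.85 against -4.77 for MOUSELNCRNA_68691. The order was the other way in MOUSELNCRNA_68976, at -4.23 against 4.15 for MOUSELNCRNA_45316, and in MOUSELNCRNA_10497, at -3.97 against 2.58 for MOUSELNCRNA_25269. Detection of both strands in all 6 mice was a condition for choosing these 4 pairs.

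The comparison the study was built for is db/db against db/m. Testing required detection in every mouse of 1 genotype or the other, which 10216 signal probes (78.9%) met. No signal probe passed an adjusted p under 0.05 in limma's moderated test with Benjamini-Hochberg adjustment over all 66939 probes tested, of which 0.00149% passed, 1 probe in all. At an unadjusted p under 0.05, 507 signal probes (4.96%) were higher in the db/db mice, where 6.53% of all probes were, and 1183 (11.6%) were lower, where 11.4% of all were. With quantile normalisation 677 (6.63%, against 7.93% of all probes) were higher and 1012 (9.91%, against 10.1%) lower. The balance of directions thus depended on the scaling, in signal probes and in all probes. The median difference was -0.02 on the log2 scale for signal probes, 0.01 for complement probes and 0.00 for all probes, and 92.8% of signal probes lay within 0.5 of 0. With quantile normalisation the median of signal probes was 0.01, on the other side of 0.

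Without db/m replicate 1, 674 signal probes passed the adjusted threshold, 65 higher (0.631%) and 609 lower (5.91%). Over all probes the shares were 0.657% and 6.37% in that comparison, in which slide and genotype cannot be told apart because the remaining db/m arrays share slide 2. With slide 1 alone db/m replicate 1 is the only control, and limma's test takes its spread from the db/db mice. There no signal probe passed, and of the 903 with an unadjusted p under 0.05, 334 were higher (3.22%, against 3.27% of all probes) and 569 lower (5.48%, against 4.99%).

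Counts of probes whose groups did not overlap gave a like picture. All 3 db/db mice were above all 3 db/m mice in 794 signal probes (7.77%, against 9.4% of all probes) and below them in 1662 (16.3%, against 15% of all probes). Differences of at least 2-fold with an unadjusted p under 0.05 were found in 25 signal probes upward (0.245%, against 0.303%) and in 34 downward (0.333%, against 0.533%). Detection on all db/db arrays and no db/m array was found in 40 signal probes (0.309%, against 0.343%), and the opposite in 2 (0.0154%, against 0.0154%). These shares were near or below those of all probes.

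At equal G and C number, the median db/db minus db/m difference of signal probes was -0.03 relative to complement probes. The spread of that value between arrays of a group was 0.029, so the shift was of the size of the spread between mice. The median deviation of signal probes from each probe's own mean was -0.05, -0.03 and 0.03 in the db/db mice and 0.04, -0.04 and 0.02 in the db/m mice, and the groups overlapped.

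The 4 signal probes with the smallest unadjusted p, 2 in each direction, are given here, and none of them passed after adjustment. Larger differences with larger p were present. The first 2 lines are lower in db/db and the last 2 higher, with the hexamer in capitals.

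MOUSELNCRNA_60806: tccttttcaAATAAAcgaggttactattga
MOUSELNCRNA_60804: ggaaAATAAActtcgaggagttcgatagga
MOUSELNCRNA_11148: ctaagataacttAATAAAatcccagtgtca
MOUSELNCRNA_24760: gAATAAActggagacactctcaaaaatgca

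MOUSELNCRNA_60806 stood at -4.17, -3.92 and -4.05 in the db/db mice and at -2.97, -3.19 and -2.97 in the db/m mice. Every db/db mouse was below every db/m mouse, with a difference of -1.0 (SE 0.108, limma adjusted p = 0.19). It was -0.43 when background was corrected by normexp, which also adds an offset of 50. MOUSELNCRNA_60804 stood at 0.995, 0.84 and 0.80 in db/db and at 1.99, 1.72 and 1.99 in db/m. The groups were again apart, by -1.02 (SE 0.112, limma adjusted p = 0.19). Both probes have 2 spots and were detected in all 6 mice, and their identifiers are close in number, but whether they read the same RNA was not tested.

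MOUSELNCRNA_11148 stood at -4.89, -5.03 and -5.04 in db/db and at -5.92, -5.83 and -6.09 in db/m. It was higher in every db/db mouse, by 0.96 (SE 0.102, limma adjusted p = 0.19). The difference was 0.04 after the normexp correction and 0.16 in the authors' own values, and the cause was not tested. MOUSELNCRNA_24760, with 1 spot, stood at -3.12, -3.06 and -3.13 in db/db and at -3.79, -3.96 and -3.84 in db/m, a difference of 0.76 (SE 0.0857, limma adjusted p = 0.19). After normexp correction it was 0.25. Without db/m replicate 1 the 4 adjusted p-values of limma were 0.0192, 0.0193, 0.0182 and 0.0143.

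Within the signal probes, those with a widely repeated stretch had a larger share of lower values in db/db than all probes had. The share was smaller than that of all probes with slide as a fixed block, but not with slide as a random block. Among the 491 tested, an unadjusted p under 0.05 was found downward in db/db for 145 (29.5%, against 11.4% of all probes) and upward for 5 (1.02%, against 6.53%), and all 3 db/db mice were below all 3 db/m mice in 269 (54.8%, against 15% of all probes). The median difference was -0.14. Their median deviation was -0.06, -0.09 and -0.08 in the db/db mice and 0.02, 0.09 and 0.11 in the db/m mice. The db/m mouse on slide 1, at 0.02, lay between the db/db mice and the db/m mice of slide 2. With slide as a fixed block the median was -0.10 and 25 (5.09%) were lower, a share below the 6.76% of all probes in that fit. With slide as a random block the median was -0.13 and 72 (14.7%) were lower, against 7.91% of all probes. With quantile normalisation the median was -0.08 and 83 (16.9%) were lower, against 10.1% of all probes. With normexp 174 (35.4%, against 14.3%) were lower, and with limma's trended and robust prior 256 (52.1%, against 12.2%). The share thus depended strongly on the setting. The 9725 signal probes without such a stretch had a median of -0.01. Of these, 1038 (10.67%, against 11.4% of all probes) were lower and 502 (5.16%, against 6.53%) higher, so both shares lay below those of all probes.

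The B2-like family had a median difference of -0.11. At an unadjusted p under 0.05, 31 of its 186 probes (16.7%, against 11.4% of all probes) were lower and none was higher. The groups did not overlap in 115 (61.8%, against 15% of all probes lower in db/db), all of them lower in db/db. The median on the 6 arrays was 7.46, 7.41 and 7.40 in db/db and 7.52, 7.53 and 7.55 in db/m, so each db/db mouse was below each db/m mouse. The smallest adjusted p in the family was 0.209 in limma's test. The median was -0.10 with slide as a block and -0.04 with quantile normalisation. The lower probes were then 6 (3.23%) and 8 (4.30%), shares below the 6.76% and 10.1% of all probes in those fits. With slide as a random block 12 (6.45%, against 7.91%) were lower. With normexp 41 (22.0%, against 14.3%) were lower, and with limma's trended and robust prior 97 (52.2%, against 12.2%). These probes share a sequence and are not independent. The AATAAACCCTTTCCT family had a median of -0.18, and 21 of its 52 probes (40.4%, against 11.4% of all probes) were lower. A fixed slide block brought this to -0.15 with 6 lower probes (11.5%, against 6.76%). With a random slide block it was -0.16 with 14 lower probes (26.9%, against 7.91%).

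Fewer of the A-ended signal probes described above than of all probes had a small p. Of the 455 tested with 19 to 30 bases after the hexamer, 33 (7.25%, against 11.4% of all probes) were lower and 16 (3.52%, against 6.53%) higher at an unadjusted p under 0.05, with a median of -0.03.

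A few signal probes carry other marked features. At least 2 copies of ATTTA, the core of AU-rich decay elements, were found in 17 of them (0.131%, against 0.409% of all probes). The mean level of these was -2.54, against -2.61 for all such probes. At least 4 CG dinucleotides were found in 71 (0.548%, against 1.01% of all probes). They had a mean level of -2.59, against -2.61 for all such probes. An overlap of at least 30 bases with a probe on the other strand, wherever the hexamer lay, was found in 213 (1.64%, against 1.39% of all probes). Their mean level was 5.98, against -0.22 for the 74 such complement probes and 3.11 for all 1263 such probes. Probes with widely repeated stretches were not set apart here.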

How the data were processed

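Total RNA of the hippocampus of 6 mice was amplified, given a Cy3 label and read on Agilent arrays with 1 colour, per the labels' protocols. Spot intensities were read and background-subtracted with Agilent Feature Extraction 12.0.3.1, per the file headers, while the submitters' processing notes name version 10.7 and limma. The scanner's flags for background, saturation and outliers were used as deposited. The authors' table of processed values, also deposited, is on a log2 scale per probe with column medians of 5.66 to 5.67. How it was normalised is not given in the sources used here. Its columns for db/db replicates 2 and 3 followed each other's arrays, which leaves comparisons between groups as they are, and it served as an alternative only.

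Here the log2 processed intensity minus each array's 75th percentile was used, with spots of a probe averaged after outlier spots were dropped. The genotypes were set against each other by moderated 2-sided tests (limma 3.58.1, run under R 4.3.3) on all 66939 probes well above background on all arrays of either group, without covariates, with Benjamini-Hochberg adjustment over all of them at a threshold of 0.05. On simulated data with 200 changed probes among 66939, the db/db against db/m test recovered 45% of 2-fold and 82% of 4-fold changes, with 3 false calls. The simulated noise was independent between probes and arrays and held no slide effect, so these figures need not hold for the real arrays. Levels and detection were compared within each number of G and C that held at least 10 probes of each kind, weighted by signal probes, with no test, since probes are not replicates. Named probes are the 2 with the smallest p in each direction, the 4 brightest of each kind and the 4 with the most copies. Ties in copies went to the brighter probe. The 2 highest and 2 lowest opposite-strand pairs detected on all arrays are named as well. The typical probes and the A-ended and repeated-stretch groups were added after values had been seen. Members and lists were chosen with earlier results of these data known. Replicate numbers gave correlations between same-numbered mice of 0.08, -0.15 and 0.13, so they were not taken as pairs. Alternatives were other normalisations, background correction, filters, slide and replicate blocks, matching rules, 1 probe per cluster and leaving out each array. Array number, 3 per group, limits the precision.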

Additional observations from a re-analysis of the deposited data

How the results depend on the processing

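The count of signal probes called between db/db and db/m stayed at 0 under every alternative run except leaving out 1 mouse, where it ranged from 0 to 674, the latter without db/m replicate 1; the cause was not tested. Slide 1 alone, with 1 control, says little on this count. At an unadjusted p under 0.05 the 1690 probes became 903 on slide 1 alone, with fewer arrays, and ranged from 1015 (without db/m replicate 3) to 2343 (without db/m replicate 1), with 1067 when db/db replicate 2 was left out and 1089 when db/m replicate 2 was. The count over all probes moved the same way, from 11976 to 6706 without db/m replicate 3 and to 16713 without db/m replicate 1. Without db/m replicate 3, 5.89% of signal probes were lower and 4.03% higher, against 5.85% and 4.15% of all probes. Without db/m replicate 1 the shares were 15.3% and 7.43%, against 15.5% and 9.25%. With the replicate block the counts of signal probes were 0 called and 1512 at an unadjusted p, and no call changed. The level difference of 0.63 was above 0 under all 19 alternatives. It was 0.38 with normexp, 0.48 with 1 probe per cluster, 1.64 matched on A number too, 0.40 matched on distance too, 0.47 without repeated stretches, 0.46 without probes ending in AAAA and 0.29 without either. The detection difference of 0.582 points was 1.38 with the looser detection flag, 0.0899 with 1 probe per cluster, 1.5 unmatched, 8.90 matched on A number too and 0.0529 without probes ending in AAAA. It turned to -0.0755 without repeated stretches, -0.661 without either and -1.11 matched on distance. These distance, repeat and A-end alternatives were chosen after seeing the data, and the cause of each change was not tested. The genotype difference relative to complement probes stayed below 0 under all 23 alternatives, from -0.06 to -0.01. The share of hexamers 10 to 24 bases from the end was 58.1% without repeated stretches, and the strand difference was 2.44 with at least 40 shared bases. Probes near background limit what can be said of dim RNAs.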
